A study of Mus musculus with 3 samples.

Results

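The cadherins, catenins and desmosome genes are the parts of the junctions that hold epithelial cells to each other. They were measured here in EpH4-PR cells as 39 genes by name, with 60 probes, out of 29273 gene names and 41174 probes on the array. A probe was taken when the scanner file named its gene as a numbered cadherin, desmoglein, desmocollin or plakophilin, or as Dsp, Jup, Ctnna1, Ctnna2, Ctnnd1, Ppl, Evpl or Perp. Protocadherins were not taken. The array's names are old, so 14 further probes for 8 of these genes stood under earlier names that a RefSeq gene table lists as synonyms or accessions of the genes. Among those genes are Ctnna1, Ctnna2 and Ctnnd1, which had no probe under their present names. The further probes were found after the values had been seen, and are given beside the 60 and not counted with them.

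In adherens junctions, classical cadherins on adjacent cells bind each other in the presence of calcium, and their tails hold p120-catenin and beta-catenin or plakoglobin, with alpha-catenin as the link to actin. In desmosomes, desmogleins and desmocollins span the membrane, plakoglobin and plakophilins bind their tails, and desmoplakin ties the plaque to keratin filaments. Mammary epithelium is known for E-cadherin in its luminal cells and P-cadherin in its myoepithelial cells, while N-cadherin and cadherin-11 are known from mesenchymal cells.

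EpH4 is a mammary epithelial line of the mouse. EpH4-PR cells are EpH4 cells that were stably transfected with the A form of the progesterone receptor (PR), with clones selected after transfection, and were kept in DMEM with 10% FBS and harvested at about 75% confluence. Their total RNA was labelled with Cy5 on 3 arrays and set on each array against a commercial mouse reference RNA, the Stratagene mouse standard, in Cy3, with no dye swap. The vector control line EpH4-EV was not analysed here, so each ratio compares EpH4-PR cells with a reference RNA and none measures an effect of PR. Whether the 3 arrays are separate cultures is not stated, so the p-values measure only the spread between arrays, which may be technical. All ratios are log2 of Cy5 over Cy3 after background correction and loess normalization, and a probe was called when its adjusted p in limma was under 0.05 and its ratio was at least 1 log2 unit from 0.

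The labelled cell type, epithelial, was checked against marker genes. All 12 epithelial genes examined were well above background in Cy5 on all 3 arrays, with a median log2 ratio of 1.26 and a summed Cy5 signal between 94539 and 110015. By gene, the ratios of this list ran from -2.62 for Krt19, which was called lower, to 3.99 for Krt7. Fibroblast markers had 9 of 10 genes above background but a median log2 ratio of -1.77 and a summed signal between 4114 and 4766. Endothelial markers reached this level for 4 of 8 genes, muscle for 5 of 7, leukocyte for 5 of 6 with a probe, and myoepithelial and neural for 6 of 7 each. The myoepithelial list had a median log2 ratio of -0.11 and a summed signal between 9345 and 9762, with Krt14 called higher at 2.08. The sums run over lists with unequal numbers of probes, and probes of Krt18 and Krt8 made up most of the epithelial sum. Across member probes, which are not independent replicates, the ratios of the 3 arrays had Pearson correlations of 0.983 to 0.986. No member probe had a spot marked as an outlier.

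E-cadherin and 6 of the 11 probes of plaque proteins were higher in EpH4-PR RNA than in the reference, and 1 probe of N-cadherin and 2 of cadherin-11 were lower. By limma, 7 of the 60 probes were called higher, against 2.26% of all probes, and 3 were called lower, against 3.83%. The 7 probes belonged to Cdh1, Pkp3, Perp, Evpl, Pkp1, Ppl and Pkp4, and the 3 to Cdh2 and Cdh11. None of the higher calls fell on the 16 probes of desmosomal cadherins. With the plain adjusted p and no limit on size, 20 were higher and 7 lower, beside 25.7% and 24.6% of all probes. The median log2 ratio of the members was 0.01 and that of all probes was -0.01. With each array centred on its median in place of loess, the split of member calls was 12 higher and 2 lower.

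**Figure D1:**
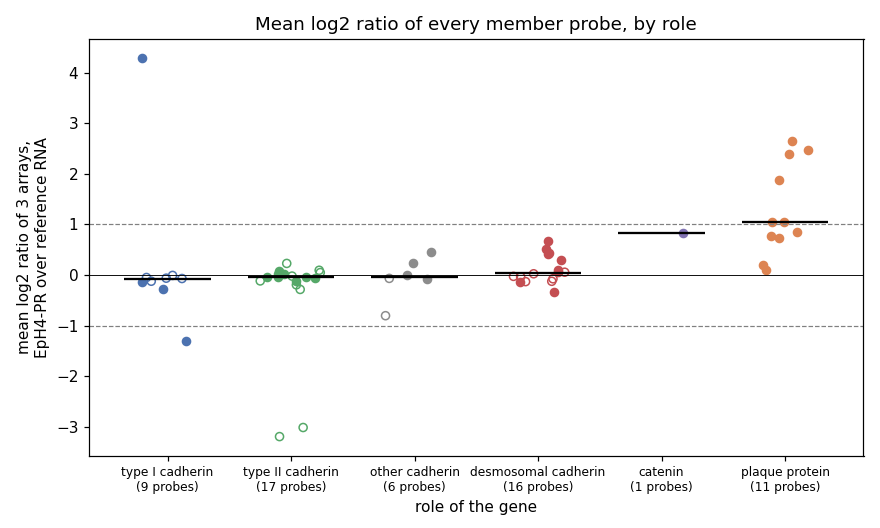
Mean log2 ratio, as EpH4-PR over reference, (vertical axis) for each of the 60 member probes, grouped by the role of the gene (horizontal axis). Filled circles were well above background in Cy5 on all 3 arrays, open circles were not, black bars are medians and dashed lines mark 1 log2 unit either way. All 11 plaque probes lie above 0 here (with median centring the 2 named Dsp fall below it), whereas the desmosomal cadherins stay between -0.33 and 0.68.

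Not every member had a measurable level in the cells. In Cy5, 37 of the 60 probes were well above background on all 3 arrays (61.7%, against 68.9% of all probes), 7 on some arrays and 16 on none, against 20.9% of all probes on none. By gene, 29 of 39 had a probe that passed on all 3 arrays and 6 had no probe that passed on any. Many of those that passed were close to background all the same. A Cy5 signal of at least 2 times the median negative control spot on all 3 arrays was reached by 14 member probes of 12 genes (23.3%, against 38.7% of all probes). Among them were 9 of 11 plaque probes, 4 of the 32 probes of cadherins outside the desmosome, and 0 of 16 probes of desmosomal cadherins. The offset of 50 added in the background correction draws the ratios of dim probes toward 0 by construction.

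**Figure D2:**
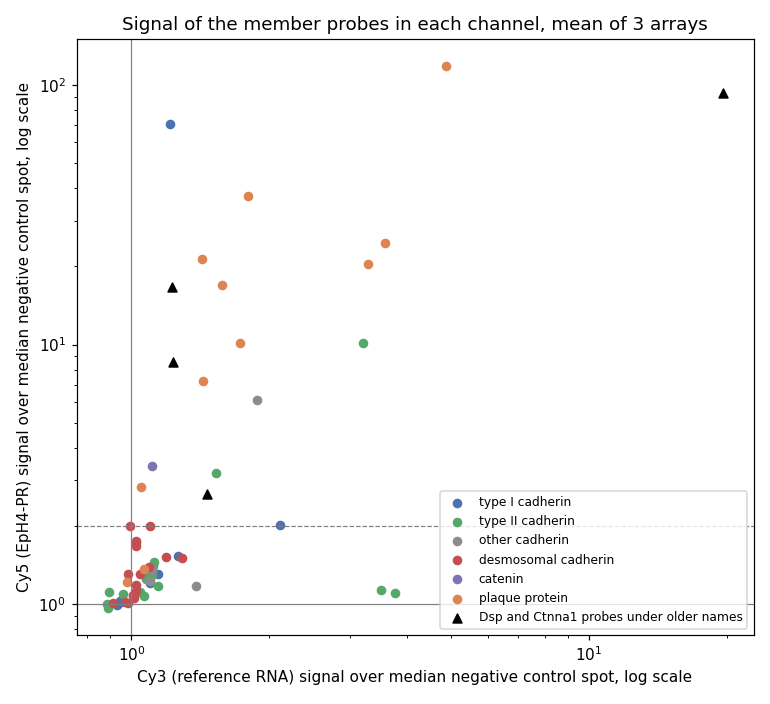
Signal of each member probe over the median negative control spot, in Cy3 for the reference RNA (horizontal axis) and in Cy5 for EpH4-PR cells (vertical axis), both on log scales, as means of 3 arrays. Grey lines mark the negative control level and the dashed line 2 times that level. Cdh1 sits at 70.5 in Cy5 and 1.22 in Cy3, and black triangles show Dsp and Ctnna1 probes that the array lists under older names.

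E-cadherin (Cdh1), the classical cadherin of epithelia, had the third highest ratio on the array. Its single probe gave log2 ratios of 4.30, 4.19 and 4.39 on replicates 1, 2 and 3, with a mean of 4.29 ± 0.10 (SD, n = 3) and an adjusted p of 1.16e-05. In Cy5 it stood at 69.6, 57.0 and 84.9 times the median negative control spot. In Cy3 it stood at only 1.23, 1.16 and 1.26 times that level, so the denominator of the ratio was near background on every array. Its mean lay between 4.25 and 5.62 under every way of processing the arrays that was tried.

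P-cadherin (Cdh3) is the next protein-coding gene to Cdh1 in the RefSeq order of the mouse genome. It gave log2 ratios of -0.08, -0.27 and -0.06, with a mean of -0.14 ± 0.11 (SD, n = 3) and an adjusted p of 0.105. Its Cy5 signal was 1.27 to 1.37 times the negative control level and its Cy3 signal 1.11 to 1.17 times, so the probe was dim in both channels.

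N-cadherin (Cdh2), the classical cadherin of neural and mesenchymal cells, had 3 probes. The probe A_51_P262773 read -1.30, -1.20 and -1.41, with a mean of -1.30 ± 0.10 (SD, n = 3) and an adjusted p of 6.56e-05. It stood at 1.85 to 2.22 times the negative control level in Cy5 and at 1.90 to 2.34 times in Cy3, each over its own channel's controls. The other 2 probes, with means of -0.01 and -0.06, were not well above background in Cy5 on any array. Under median centring A_51_P262773 moved to -0.76 and lost its call.

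Retinal cadherin (Cdh4) and muscle cadherin (Cdh15) complete the type I cadherins. The 3 Cdh4 probes had mean log2 ratios from -0.12 to -0.05, and none passed the background flag in Cy5 on all arrays. Cdh15 was well above background on all 3 arrays and had a mean of -0.27 ± 0.13 (SD, n = 3), with an adjusted p of 0.0182, short of the size needed for a call.

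Cadherin-11 (Cdh11), a type II cadherin of osteoblasts and mesenchyme, had 3 probes that lay below 0 and differed widely in size. The probe A_51_P506204 gave -2.93, -2.81 and -3.30 (mean -3.01 ± 0.25, SD, n = 3), and its Cy5 signal was well above background on 1 array. The probe A_52_P437795 gave -3.14, -2.97 and -3.47 (mean -3.19 ± 0.26, SD, n = 3) and was not well above background in Cy5 on any array. As processed here, the signal of the latter probe was at least 9.01-fold lower in EpH4-PR cells than in the reference. This bound sets the reference mean against the lowest Cy5 signal accepted as above background or the probe's own, whichever was higher. It holds for this probe and this processing only, since the probe's log2 ratio lay between -6.46 and -2.65 over the settings tried.

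The third Cdh11 probe, A_52_P683146, did not share this. It read -0.06, -0.13 and -0.15, with a mean of -0.11 ± 0.04 (SD, n = 3) and an adjusted p of 0.0861, and its Cy5 signal was 9.06 to 11.7 times the negative control level. The difference between the Cdh11 probes, 3.08 log2 units at its widest, was many times the spread between arrays. Which transcript each probe detects was not tested, and the median centring of the arrays turned the third probe to 0.97. A further probe, described in the file only as similar to the precursor of OB-cadherin (cadherin-11), was picked out after its values were seen. It read -0.05, 0.01 and 0.04, with a Cy5 signal of 6.37 to 8.08 times the negative control level, and median centring turned it to 0.94.

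The remaining type II cadherins, best known from the nervous system apart from the endothelial Cdh5, gave no call. VE-cadherin (Cdh5) had probes at -0.27, -0.21 and -0.11 (mean -0.19 ± 0.08, SD, n = 3) and at 0.18, 0.01 and -0.04 (mean 0.05 ± 0.11, SD, n = 3). Neither was well above background in Cy5 on any array, so their lying on either side of 0 has no measured level behind it. Cdh6, a cadherin of kidney and brain, was likewise not well above background in Cy5 on any array. Its mean log2 ratio was -0.28 (adjusted p = 0.00478), and its Cy3 signal was only 1.14 to 1.16 times the negative control level. Cdh10 had a mean log2 ratio of 0.23 (adjusted p = 0.0094) and passed the background flag in Cy5 on 2 arrays.

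The probes of Cdh7, Cdh8, Cdh9, Cdh18, Cdh20, Cdh22 and Cdh24 ranged from -0.12 to 0.09 in mean log2 ratio, and none had an adjusted p under 0.05. Of these, Cdh8 was not well above background in Cy5 on any array and Cdh9 was so on 1. Only Cdh24 had a probe at over 2 times the negative control level, at 3.04 to 3.38 times in Cy5, with a mean ratio of -0.04. Probes under older names added 3 for Cdh10, 1 for Cdh12 and 1 for Cdh18, with means from -0.38 to 0.07 and no call.

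Among the other cadherins, T-cadherin (Cdh13), which is held to the membrane by a lipid anchor and lacks a cytoplasmic tail, was the clearest signal. It read 0.35, 0.14 and 0.24 (mean 0.24 ± 0.10, SD, n = 3, adjusted p = 0.0197), with 5.31 to 7.13 times the negative control level in Cy5. Kidney cadherin (Cdh16) had a mean of 0.46 ± 0.15 (SD, n = 3, adjusted p = 0.00405). Intestinal cadherin (Cdh17) had a mean of -0.80 ± 0.32 (SD, n = 3, adjusted p = 0.00466) and passed the background flag in Cy5 on 2 arrays. None of the 3 reached the size needed for a call. Cdh23, part of the tip links of hair cells, and Cdh26 had means between -0.08 and 0.00.

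The desmosomal cadherins, which form the adhesive core of desmosomes, gave 0 calls in 16 probes, by limma or by the methods' t-test. By limma, 2.26% of all probes were called higher and 3.83% lower, so few calls would fall on 16 probes at these shares. With no limit on size, 5 of the 16 were higher at an adjusted p under 0.05 and 0 were lower. Of all probes, 25.7% were higher and 24.6% lower by that rule. An unadjusted p under 0.05 in limma was found for 5 of the 16. With normexp offset 0 there were 2 calls and with the scanner log ratio 3. In the RefSeq order of genes 10 members stand side by side, namely Cdh2, Dsc3, Dsc2, Dsc1, Dsg1c, Dsg1a, Dsg1b, Dsg4, Dsg3 and Dsg2. Of all their probes taken by name, only the Cdh2 probe above was called.

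Desmocollin 2 (Dsc2), the desmocollin of simple epithelia, was the one gene of this group with several probes that all pointed the same way with an adjusted p under 0.05. Its probe A_52_P157158 read 0.59, 0.83 and 0.61 (mean 0.68 ± 0.13, SD, n = 3, adjusted p = 0.00079). The probe A_51_P158037 read 0.51, 0.29 and 0.43 (mean 0.41 ± 0.11, SD, n = 3, adjusted p = 0.00349). The probe A_52_P252931 read 0.48, 0.43 and 0.38 (mean 0.43 ± 0.05, SD, n = 3, adjusted p = 0.0011). In Cy5 the 3 probes stood at 1.57 to 2.20 times the negative control level and in Cy3 at 0.925 to 1.11 times, and these ratios moved with the processing. With the log ratio of the scanner software they were 2.25, 1.53 and 2.31, and all 3 were called.

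Desmoglein 2 (Dsg2), its counterpart in simple epithelia, was not settled by its probes. The probe A_51_P249848 read 0.02, 0.84 and 0.70 (mean 0.52 ± 0.44, SD, n = 3). The probe A_52_P559779 read -0.29, -0.69 and -0.00 (mean -0.33 ± 0.34, SD, n = 3, adjusted p = 0.0955). The probe A_52_P88091 read -0.02, 0.06 and -0.11 and was well above background in Cy5 on 1 array. The spread between arrays was as wide as the means, and replicate 1 of the first probe stood apart from the others. One more probe, described in the file only as similar to the human desmoglein 2 precursor and picked out after its values were seen, read 0.84, 1.04 and 0.76 (mean 0.88 ± 0.15, SD, n = 3) and missed the call. A further probe described as similar to desmoglein 2 read -0.10, -0.12 and -0.07 and was not well above background in either channel on any array.

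The desmogleins and desmocollins known from stratified epithelia and skin had little or no signal. Dsg1b gave probe means of 0.06, -0.14 and -0.07, from array values of -0.14, 0.15 and 0.16 for the first, -0.06, -0.40 and 0.03 for the second and -0.11, -0.10 and -0.01 for the third. Dsg3 gave -0.19, -0.20 and 0.01 on a probe below background in Cy5 and 0.08, 0.10 and -0.01 on one above it. In both genes the probes fell on opposite sides of 0, and none of them had an adjusted p under 0.05. Dsg4 had a mean of 0.30 (adjusted p = 0.0174) and Dsg1c of 0.10. Dsc1, Dsc3 and Dsg1a were not well above background in Cy5 on any array, and a Dsc1 probe under an older name was not either.

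Of the 11 probes of plaque and envelope proteins 6 were called higher, and 10 had an adjusted p under 0.05 with no limit on size. Their median log2 ratio was 1.04, and the mean of each lay above 0, although the probes named Dsp fell below 0 under median centring. Plakophilin 3 (Pkp3), which binds most desmosomal cadherins, read 2.67, 2.64 and 2.67 (mean 2.66 ± 0.02, SD, n = 3, adjusted p = 1.28e-05). Plakophilin 1 (Pkp1), which clusters desmosomal proteins in stratified epithelia, read 1.97, 1.79 and 1.89 (mean 1.88 ± 0.09, SD, n = 3, adjusted p = 2.65e-05). On every array both lay above 1 log2 unit.

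Plakophilin 2 (Pkp2), found in most epithelia and in heart muscle, read 0.91, 0.80 and 0.83 (mean 0.84 ± 0.06, SD, n = 3, adjusted p = 0.000133) and fell short of a call. Plakophilin 4 (Pkp4), also found at adherens junctions, read 1.02, 1.06 and 1.05 on probe A_51_P251245 (mean 1.04 ± 0.02, SD, n = 3) and 0.77, 0.67 and 0.77 on probe A_51_P414762 (mean 0.74 ± 0.06, SD, n = 3). The first was called and the second was not, though both lay above 0 on every array. Under median centring Pkp2 and the second Pkp4 probe were called too, at 2.06 and 1.92.

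Perp, a membrane protein of desmosomes and a target of p53 and p63, read 2.47, 2.44 and 2.49 (mean 2.47 ± 0.02, SD, n = 3, adjusted p = 1.31e-05). Envoplakin (Evpl), a plakin of the cornified envelope, read 2.39, 2.31 and 2.48 on probe A_51_P324838 (mean 2.39 ± 0.09, SD, n = 3). Its probe A_51_P324834 read 0.60, 0.86 and 0.88 (mean 0.78 ± 0.16, SD, n = 3). The Evpl probes thus shared a direction and differed by 1.62 log2 units, and the weaker one was at 2.67 to 3.13 times the negative control level in Cy5 and at 1.00 to 1.14 times in Cy3. The stronger one was at 18.1 to 25.7 times in Cy5 but at only 1.37 to 1.48 times in Cy3. Periplakin (Ppl), which pairs with envoplakin, read 0.89, 1.16 and 1.10 (mean 1.05 ± 0.14, SD, n = 3, adjusted p = 0.000206). Its call was lost without replicate 2, at 0.995.

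**Figure D3:**
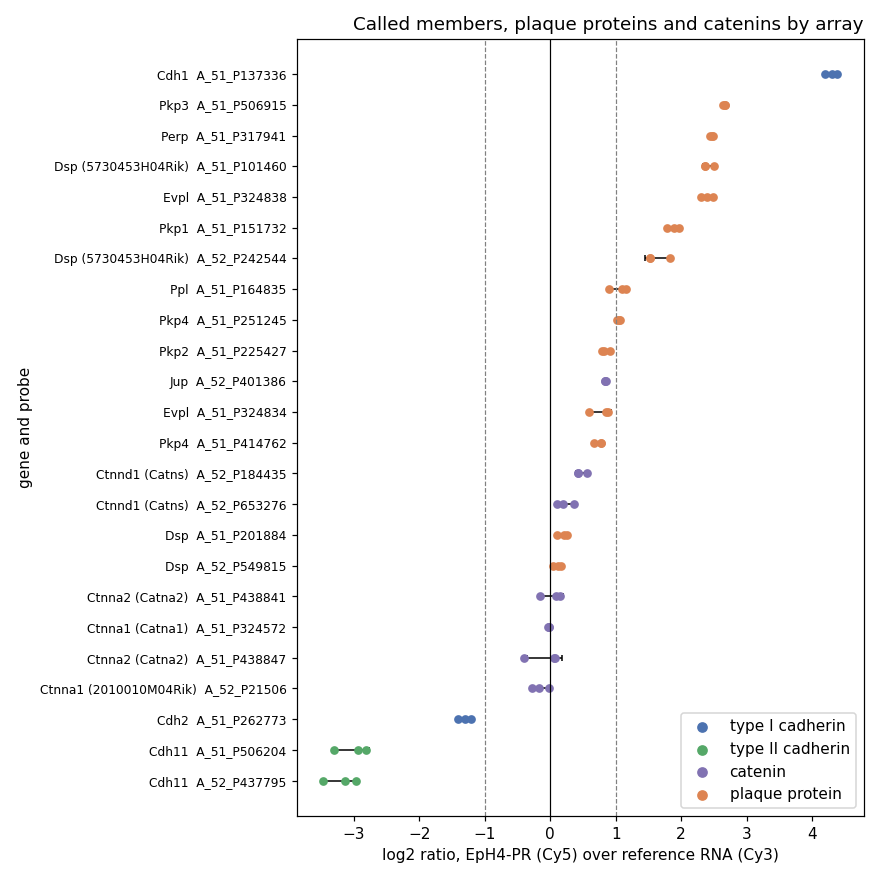
Log2 ratio, as EpH4-PR over reference, (horizontal axis) on each of 3 arrays for the called members, all plaque proteins and all catenins (vertical axis, 1 line per probe). Coloured points are arrays, black bars are the mean ± SD and dashed lines mark 1 log2 unit either way. Cdh1 lies above 4, the 2 called Cdh11 probes lie below -2, and the names in parentheses are those of the array.

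Desmoplakin (Dsp), the link from the plaque to keratin filaments, gave different values by the name of its probes. The probes named Dsp read 0.21, 0.26 and 0.11 (A_51_P201884, mean 0.19 ± 0.08, SD, n = 3) and 0.16, 0.11 and 0.04 (A_52_P549815, mean 0.10 ± 0.06, SD, n = 3). They stood at 1.20 to 1.39 times the negative control level in Cy5. Both were faint on all arrays, and the first was not well above background in Cy3 on any.

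The file also holds 2 probes under 5730453H04Rik, which the RefSeq table lists as a synonym of Dsp. The probe A_51_P101460 read 2.50, 2.37 and 2.37 (mean 2.41 ± 0.07, SD, n = 3), with a Cy5 signal of 13.2 to 20.3 times the negative control level. The probe A_52_P242544 read 1.84, 1.53 and 1.52 (mean 1.63 ± 0.18, SD, n = 3), with a Cy5 signal of 7.25 to 10.2 times that level. In Cy3 the first stood at only 1.13 to 1.34 times and the second at 1.15 to 1.35 times, so the denominators of both ratios were near background. Both were called higher, and with them the member calls came to 9 higher and 3 lower. The probes under the present name did not share this.

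**Figure D4:**
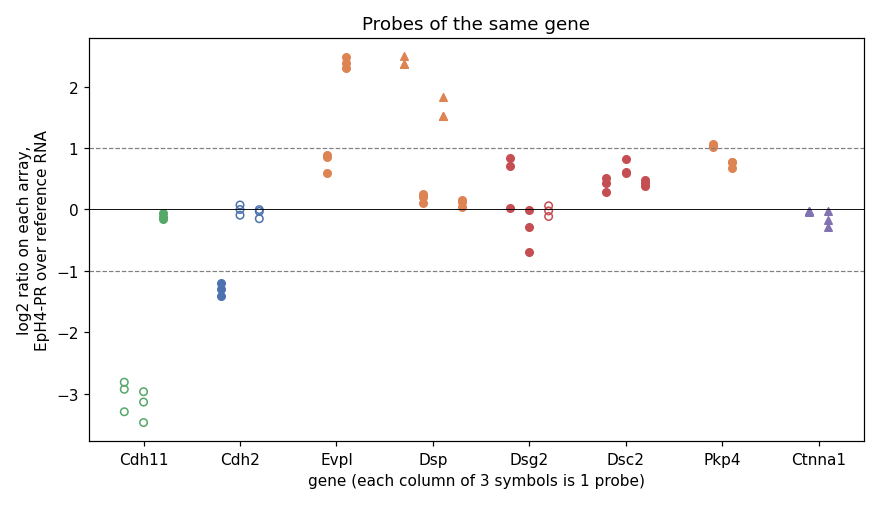
Log2 ratio, as EpH4-PR over reference, (vertical axis) on each array for genes with several probes (horizontal axis), where each column of 3 symbols is 1 probe. Circles are probes under the present gene name and triangles probes under an older one, open symbols were not well above background in Cy5 on all 3 arrays, and dashed lines mark 1 log2 unit either way. The triangles of Dsp lie above 1 and its circles below 0.5, and the Cdh11 probes lie near -3 and near 0.

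Plakoglobin (Jup), the catenin that adherens junctions and desmosomes share, read 0.85, 0.83 and 0.83 (mean 0.84 ± 0.01, SD, n = 3, adjusted p = 9.64e-05). The SD between arrays was 0.01 and the ratio missed the size needed for a call. It was called with normexp offset 0 at 1.57, with the scanner log ratio at 1.86 and with median centring at 1.25.

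Promoter windows are shown for Jup, Dsp and Pkp4, the plakoglobin and plaque genes for which a window was at hand. Each is the 250 bases before a RefSeq start (assembly GRCm38.p6), printed 5′ to 3′ on the gene's strand. Capitals mark GC boxes, the letters GGGCGG on either strand, which the factor Sp1 is known to bind, with overlapping copies run together.
Jup, chr11:100397791-100398040, minus strand: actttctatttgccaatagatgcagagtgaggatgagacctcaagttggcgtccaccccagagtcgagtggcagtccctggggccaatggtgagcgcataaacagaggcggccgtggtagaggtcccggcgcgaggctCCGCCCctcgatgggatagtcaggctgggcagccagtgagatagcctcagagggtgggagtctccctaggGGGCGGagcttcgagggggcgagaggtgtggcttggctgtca
Dsp, chr13:38151044-38151293, plus strand: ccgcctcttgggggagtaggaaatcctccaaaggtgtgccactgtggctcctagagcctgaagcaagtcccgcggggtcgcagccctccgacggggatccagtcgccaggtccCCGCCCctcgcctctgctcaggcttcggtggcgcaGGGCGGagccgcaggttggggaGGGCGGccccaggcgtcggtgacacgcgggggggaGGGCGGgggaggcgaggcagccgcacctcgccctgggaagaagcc
Pkp4, first start, chr2:59160600-59160849, plus strand: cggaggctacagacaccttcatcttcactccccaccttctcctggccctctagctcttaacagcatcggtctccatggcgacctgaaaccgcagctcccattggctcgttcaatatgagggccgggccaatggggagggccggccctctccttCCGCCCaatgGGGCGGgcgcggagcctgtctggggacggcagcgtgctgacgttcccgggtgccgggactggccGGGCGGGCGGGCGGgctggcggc

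The Jup window held 2 GC boxes, the Dsp window 4 and the first Pkp4 window 5. Over all members and older-named genes with a window, 18 genes with 22 windows, 9 windows held at least 1 GC box, and 32.7% of all 32851 windows of this length did. Ctnnd1, Ctnna2 and Cdh12, which had probes only under older names, are among these genes. E-boxes of the letters CACCTG on either strand, which Snail and Zeb repressors are known to bind, were in 4 of these 22 windows and in 17.2% of all windows. None of the 3 windows printed held one, and a second Pkp4 start held 1, beginning 47 bases before the start. A match of letters describes the window and shows no binding.

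The catenins under older names gave no call. Alpha-E-catenin (Ctnna1), the epithelial alpha-catenin, read -0.03, -0.03 and -0.02 on probe A_51_P324572 (mean -0.03 ± 0.01, SD, n = 3). That probe was bright in both channels, at 79.7 to 110 times the negative control level in Cy5 and 17.1 to 23.4 times in Cy3. Median centring placed it at 1.42, while the scanner log ratio kept it near 0. A second Ctnna1 probe read -0.17, -0.28 and -0.02 (mean -0.16 ± 0.13, SD, n = 3).

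p120-catenin (Ctnnd1), which keeps cadherins at the membrane, read 0.57, 0.42 and 0.42 on one probe (mean 0.47 ± 0.08, SD, n = 3, adjusted p = 0.00135) and 0.20, 0.10 and 0.36 on the other (mean 0.22 ± 0.13, SD, n = 3, adjusted p = 0.0374). Neither was called, though the first was called with normexp offset 0 at 1.02 and with the scanner log ratio at 1.22. Alpha-N-catenin (Ctnna2), the neuronal alpha-catenin, read -0.15, 0.09 and 0.15 on one probe and 0.06, 0.07 and -0.40 on the other. Its probes differed from 0 by less than the spread between arrays and were at 1.17 to 1.29 times the negative control level in Cy5. Beta-catenin (Ctnnb1), which binds classical cadherins and also acts in Wnt signalling, is no member by name and had probe means of 0.08, -0.10 and -0.09 on 3 probes.

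Among 39 further genes of adherens junctions and of filament anchoring, with 78 probes, 8 probes were called higher and 3 lower. Of all probes, 2.26% were called higher and 3.83% lower. The median log2 ratio of the 78 probes was 0.04, beside -0.01 for all probes. The highest ratios among probes above background in both channels were those of the keratins Krt14 (2.08 ± 0.13), Krt8 (1.40 ± 0.05) and Krt18 (1.40 ± 0.09), of afadin (Afdn, 1.68 ± 0.07), the nectin anchor, and of the alpha-catenin relative Ctnnal1 (1.23 ± 0.05), each as mean ± SD of 3 arrays. Other probes of these genes had means of 0.44 and 0.01 for Afdn, 1.03 and 0.58 for Ctnnal1, and 1.12 for Krt8. Those of Afdn were not called. Keratins are the filaments to which desmosomes attach.

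The lowest was the mesenchymal filament protein vimentin (Vim) at -6.51 ± 0.11. Also among the lowest were the actin binder Lima1 at -1.83 ± 0.02, Nectin4 at -0.97 ± 0.17 and corneodesmosin (Cdsn) at -0.96 ± 0.03, of which the last 2 were not called (mean ± SD, n = 3 each). Other probes of Lima1 and Nectin4 had means of -0.51 and -0.12, and neither was called. Another probe of Vim had a mean of -0.14 but was not well above background in Cy5 on any array, so that value has no measured level in the cells behind it. In bulk RNA, fewer cells of a type and less RNA per cell cannot be told apart, and the makeup of the reference RNA enters every ratio.

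**Figure D5:**
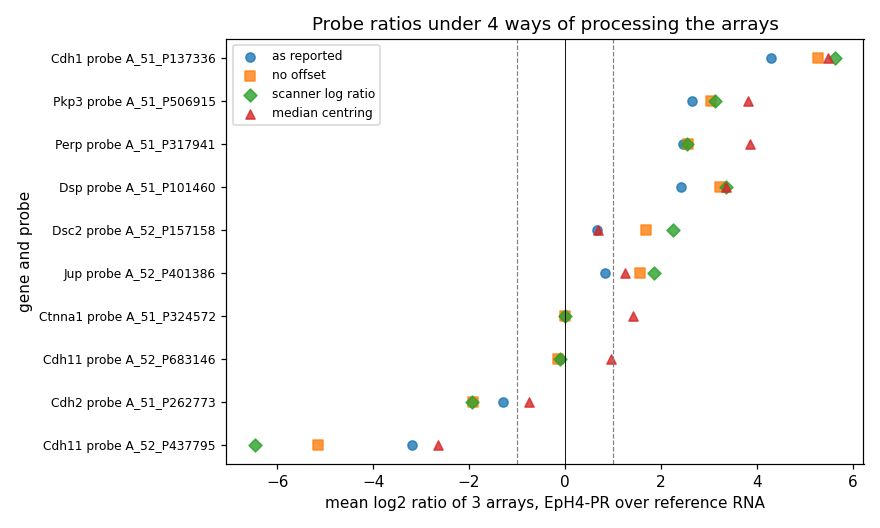
Mean log2 ratio, as EpH4-PR over reference, (horizontal axis) for 10 probes (vertical axis) under 4 ways of processing the same 3 arrays, with dashed lines at 1 log2 unit either way. Cdh1, Pkp3, Perp and the older-named Dsp probe stay above 1 in each, the Cdh11 probe A_52_P437795 stays below -1, and Ctnna1 moves from -0.03 to 1.42 under median centring.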

How the data were processed

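The EpH4-PR arrays were 3 Agilent two-colour slides with 1 array each. The authors deposited output of Agilent Feature Extraction 8.1.1.1 with an intensity, a local background intensity and a processed intensity per spot and channel, and a log10 ratio. They also deposited a table of 587 probes with fold changes and p-values between unnamed sides, which was not used.

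Mean spot intensity was background-corrected (normexp, offset 50) and loess-normalized within arrays, leaving out control and outlier spots, and spots of a probe were averaged while probes of a gene were kept apart. Ratios of 41174 probes were tested against 0 with lmFit and eBayes in limma 3.58.1 (R 4.3.3), with Benjamini-Hochberg adjustment over all probes. In simulated log2 ratios of 41174 probes, drawn as normal values with the spread of the real fit, 200 of 200 probes shifted by 1.5 were recovered. There were 0 false calls. The simulation left out background correction and normalization, so it checks only the fit and the call and not the processing of the arrays. Depth is not counted on arrays, and their number limits precision.

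Every member was described by role. Called members, catenins, plaque proteins and members with probes on opposite sides of 0 were given by array, as were the 5 highest and 5 lowest further junction genes by mean, of which 1 is not reported here. Members and lists were chosen with earlier results of these data known. Alternatives covered background, normalization, filters, tests and each array left out. The RefSeq table (GRCm38.p6) matched 46 of the 60 member probes by accession, and the others kept the name in the file.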

Additional observations from a re-analysis of the deposited data

How the results depend on the processing

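No paired analysis was possible because there was 1 group. Each of the 10 member calls kept its direction under 13 alternatives, and all were kept except Cdh2 under median centring (-0.76) and Ppl without replicate 2. Scaling between arrays, the intensity trend, the t-tests and the filter of dim probes left each ratio as it was. Direction could not turn under those alternatives, so they say nothing about it. Counts of higher and lower member calls were 13 and 4 with normexp offset 0, 13 and 5 with the scanner log ratio, 12 and 2 with median centring, and 20 and 7 by adjusted p alone. For the further junction genes they were 17 and 7, 18 and 7, 30 and 2, and 29 and 22. Leaving out 1 array gave 6 to 7 and 3 for members, and 7 to 8 and 3 to 4 for the further genes. Member probes well above background numbered 37 to 41 with 1 array left out and 14 at 2 times the negative control level, a limit chosen after seeing the data.

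Signs turned for probes near 0. With the scanner log ratio Cdh5 A_52_P248604 read -0.27, Dsg2 A_52_P88091 0.12, and Ctnna2 -0.0565 and 0.41. With median centring Dsg1b A_51_P167153 read -0.16, Cdh5 A_52_P248604 -0.14, Cdh11 A_52_P683146 0.97, Dsp A_51_P201884 -0.0529 and A_52_P549815 -0.0424, Dsg3 A_52_P259402 -0.0690, Ctnna2 A_51_P438841 -0.19, Cdh10 A_51_P401761 -0.14, and Ctnna1 1.42 and 0.31. Cdh18 A_52_P630905 read 0.13 with normexp offset 0, and Dsg3 A_52_P259402 read -0.00922 with the median spot intensity. With 1 array left out, Cdh5 A_52_P248604 ranged from -0.0145 to 0.0952, Cdh10 A_52_P544810 from -0.38 to 0.0137, Cdh18 A_52_P630905 from -0.0765 to 0.0553, Ctnna2 from -0.0321 to 0.12 and from -0.17 to 0.0677, and Dsg2 A_52_P88091 from -0.0684 to 0.0186. The cause was not tested. The median of all probes was -0.01 as reported, and under the alternatives it lay between -0.01 (median centring) and 0.04 (scanner log ratio).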
